A study of Mus musculus with 4 samples.

Results

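The genes described are Smchd1, the 6 genes Smc1a, Smc2, Smc3, Smc4, Smc5 and Smc6, the cohesin gene Rad21 and Ctcf, 9 genes of the 22686 in the table, taken by name. All 9 had a mean FPKM of at least 1, as did 11471 genes in all, and 8 of the 9 had allele-assigned reads. RNA-seq gave the level of each gene and its parental split in female mouse epiblast stem cells (EpiSCs), pluripotent cells that correspond to the epiblast after implantation. The labels give embryonic day 6.5 and a cross of C57BL6/J with F1 animals of JF1 and C57BL6/J. There were 4 combined genotypes with 1 library each: Smchd1 MD1/MD1 with XistdeltaA/+, Smchd1 +/+ with XistdeltaA/+, MD1/MD1 with Xist1lox/+, and +/+ with Xist1lox/+. All 4 libraries are therefore labelled heterozygous for a mutation of Xist, and none is labelled wild type at both genes. The labels do not say what the MD1 allele changes, or how many embryos or lines stand behind a library.

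SMC proteins are ATPases that fold and hold together chromosomes. Smc1a and Smc3 pair in cohesin, which is closed by Rad21 and forms chromatin loops that CTCF halts. Smc2 and Smc4 pair in the condensins, which compact chromosomes for mitosis, and Smc5 with Smc6 in a complex acting in DNA repair. SmcHD1 shares the hinge domain of this family but has an ATPase domain of another kind. It is bound to the inactive X chromosome and is known to be needed there for DNA methylation of many CpG islands.

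The libraries held 7301034 to 8008500 allele-assigned reads. Such reads cover a strain variant, so they are fewer than all reads on a gene. The XistdeltaA/+ libraries stood apart from the Xist1lox/+ libraries and from each other. Of 5 macrophage markers in the table, the summed FPKM was 847 in MD1/MD1 and 22.3 in +/+ with XistdeltaA/+, and 269 in MD1/MD1 and 297 in +/+ with Xist1lox/+. Lyz2 carried these sums, with 799 and 0.384 FPKM, then 247 and 274, while Cd68 made up 21.7 of the 22.3 in the +/+ XistdeltaA/+ library and was at 18.1 and 19.3 in the Xist1lox/+ libraries. Emr1, which marks macrophages, was listed at 0 in the +/+ XistdeltaA/+ library. The 6 feeder fibroblast markers summed to 91.9 and 32.4 FPKM in the first pair, and to 44.7 and 45.8 in the second, MD1/MD1 first. The 7 mitotic genes summed to 492 FPKM in MD1/MD1 and 721 in +/+ with XistdeltaA/+, and to 628 and 612 with Xist1lox/+. Among 6 primed epiblast markers Pou5f1 was the highest, at 856, 551, 873 and 984 FPKM in the order of genotypes given above. In +/+ XistdeltaA/+ 2 of the 6 were at their highest, among them Otx2, with 44.4, 80.9, 66.2 and 47.5 FPKM. Fgf5, the lowest of the 6 by mean, had 41.8, 35.7, 25.6 and 26.0. Of 5 naive pluripotency markers 2 had a mean FPKM of at least 1. These were Klf2, at 30.8, 31.4, 39.8 and 50.6, and Klf4, at 32.4, 24.2, 33.0 and 34.8. In these bulk samples, fewer cells of a type and less RNA per cell cannot be told apart. The paternal share of Cd68 reads was 18.6% in MD1/MD1 and 61.0% in +/+ with XistdeltaA/+, and 30.9% and 35.8% with Xist1lox/+. The part of macrophages and other cell types in the parental shares given below was not tested.

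Smchd1 (mm9, chr17:71693834-71824683, minus strand) is the gene mutated in this study. Its FPKM was 6.68 in MD1/MD1 and 27.0 in +/+ with XistdeltaA/+, and 5.98 in MD1/MD1 and 20.9 in +/+ with Xist1lox/+. Both MD1/MD1 libraries were low and both +/+ libraries were high. MD1/MD1 kept 24.7% of the +/+ level with XistdeltaA/+ and 28.6% with Xist1lox/+, so transcript was still read. The gene stood at the 33.5 and 32.1 percentiles of FPKM over tested genes in the MD1/MD1 libraries, and at the 71.6 and 65.4 percentiles in the +/+ libraries. The paternal shares of its neighbours also differed between these genotypes, as given below. The part of strain in the level of Smchd1 was not tested.

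Allele-assigned reads, a second count from the same libraries, gave 399 reads in MD1/MD1 against 1549 in +/+ with XistdeltaA/+, and 376 against 1458 with Xist1lox/+. In CPM of allele-assigned reads this was 49.8 and 198, then 51.5 and 186. By either measure the MD1/MD1 libraries were low. The log2 ratio of FPKM + 1 was -1.87 with XistdeltaA/+ and -1.65 with Xist1lox/+. The limma estimate over both backgrounds was -1.76 ± 0.18 (SE, 2 libraries each, adjusted p = 0.173, unadjusted p = 0.000136), which does not pass an adjusted p of 0.05. limma called 0 of the 9 genes by that rule, against 4 of 11471 genes tested (0.0349%), and 1 of the 9, Smchd1, had an unadjusted p under 0.05, against 3.26%. The model has 1 residual degree of freedom. On allele-assigned reads edgeR gave -1.92 with an adjusted p of 0.0846, and 0.0284 without a filter on low counts, while DESeq2 gave 1.16e-07. These fits called 0.0433%, 0.143% and 0.19% of their genes. The call on Smchd1 depends on the tool.

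The bases before the starts of Smchd1 and of Smc1a are shown because one gene is the mutated one and the other is the X-linked member of the family, whose paternal allele gave reads in MD1/MD1 only. They are the 250 bases upstream of the RefSeq start (GRCm38.p6), 5′ to 3′ on the strand of the gene, with each CpG in capitals. The windows are chr17:71475344-71475593, minus strand, and chrX:152016178-152016427, plus strand, in that build, which is not the mm9 of the other coordinates.
Smchd1: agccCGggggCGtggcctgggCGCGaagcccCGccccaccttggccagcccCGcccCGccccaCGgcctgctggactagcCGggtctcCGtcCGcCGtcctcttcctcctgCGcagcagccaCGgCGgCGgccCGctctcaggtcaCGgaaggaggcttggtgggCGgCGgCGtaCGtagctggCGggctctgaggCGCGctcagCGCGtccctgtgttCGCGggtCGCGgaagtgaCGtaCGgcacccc
Smc1a: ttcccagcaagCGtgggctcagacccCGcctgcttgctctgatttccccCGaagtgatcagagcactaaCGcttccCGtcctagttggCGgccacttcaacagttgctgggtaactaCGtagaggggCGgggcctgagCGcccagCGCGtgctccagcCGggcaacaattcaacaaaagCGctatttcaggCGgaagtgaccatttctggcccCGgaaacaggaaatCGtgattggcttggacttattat
The motif searched was CG, which reads the same on both strands. The Smchd1 window holds 33 CpGs, a number reached by 4.03% of 32851 promoter windows of that length. The Smc1a window holds 16, a number reached by 25.4% of all windows and by 16.2% of 1223 windows on the X. Promoters of 7 of the 9 genes are in the table, with 4 CpGs for Smc5 to 40 for Ctcf. Methylation was not analysed here.

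**Figure D1:**
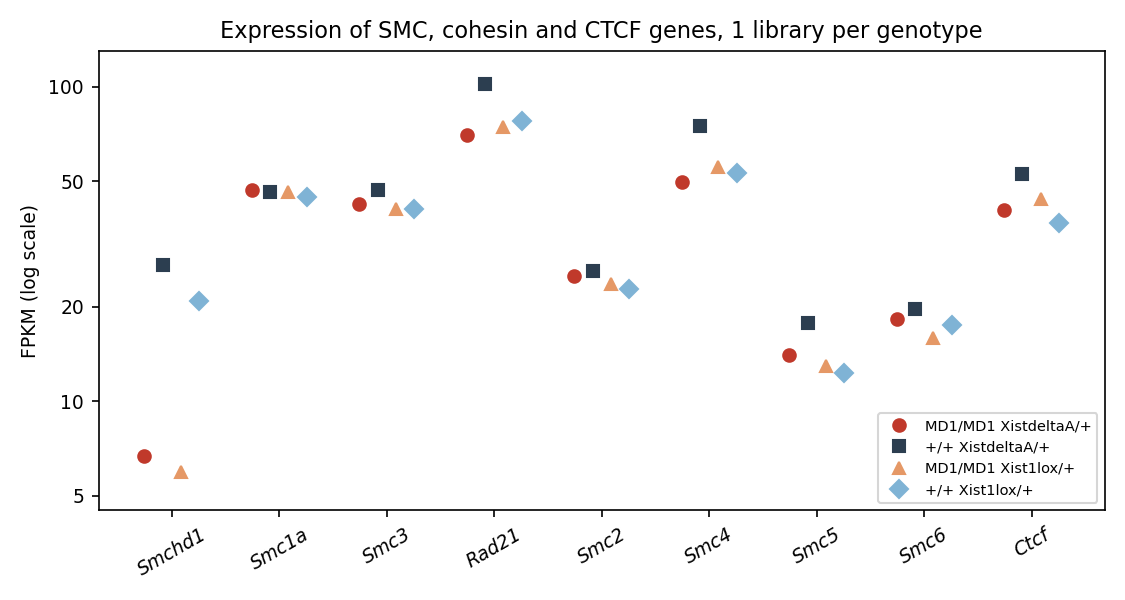
FPKM on a log axis for each of the 9 genes in each of the 4 libraries, 1 point per library, with MD1/MD1 left of +/+ in each Xist background. Smchd1 alone has both MD1/MD1 points, at 6.68 and 5.98, far below both +/+ points, at 27.0 and 20.9, while Smc1a lies within 44.6 to 46.8 in all libraries.

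Smc1a (mm9, chrX:148450971-148496516, plus strand) encodes the cohesin ATPase that pairs with Smc3 and is the 1 X-linked gene of the 9. Its FPKM was 46.8 in MD1/MD1 and 46.4 in +/+ with XistdeltaA/+, and 46.2 in MD1/MD1 and 44.6 in +/+ with Xist1lox/+. The total level was nearly flat, with the highest library 1.05 times the lowest, where the median of tested genes with FPKM above 0 in every library was 1.40 times. The log2 ratios were 0.01 and 0.05, and limma gave 0.03 ± 0.16 (SE, adjusted p = 0.990), while edgeR on allele-assigned reads gave -0.03.

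Under this flat total, the parental split of Smc1a reads differed between genotypes. MD1/MD1 had 164 paternal reads of 1023 and +/+ had 0 of 1011 with XistdeltaA/+. With Xist1lox/+ MD1/MD1 had 116 of 971 and +/+ had 0 of 1085. Both MD1/MD1 libraries thus held paternal reads and neither +/+ library held any. The paternal share was 16.0% (13.8 to 18.4) and 11.9% (9.97 to 14.2) in MD1/MD1 XistdeltaA/+ and MD1/MD1 Xist1lox/+, while 0 reads allow a share of up to 0.297% and 0.276% in the +/+ libraries of the same backgrounds. The brackets hold 95% intervals (exact, Clopper-Pearson), which, like these limits of 3 counts, cover counting error alone.

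Fisher's exact test (two-sided, Benjamini-Hochberg adjustment over 341 X-linked genes) gave an adjusted p of 3.32e-51 for Smc1a with XistdeltaA/+ and of 9.71e-39 with Xist1lox/+. This test compares those libraries, not the conditions. A higher paternal share in MD1/MD1 was called for 46% of these genes in the first pair, for 41.1% in the second and for 35.8% in both. Passing the test is thus frequent on this chromosome. In the size of the difference, 16.0 and 11.9 points, 23 genes lay above Smc1a with XistdeltaA/+ and 50 with Xist1lox/+. The median share of the 341 genes was 3.55% in MD1/MD1 and 0% in +/+ with XistdeltaA/+, and 3.57% and 0.228% with Xist1lox/+.

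Multiplying FPKM by the share gives a level per parental allele, if reads over variants stand for the whole gene. Paternal Smc1a was then at 7.51 FPKM in MD1/MD1 XistdeltaA/+ and at 5.52 in MD1/MD1 Xist1lox/+, and at 0 in both +/+ libraries. Maternal Smc1a was at 39.3 FPKM in MD1/MD1 and 46.4 in +/+ with XistdeltaA/+, and at 40.7 in MD1/MD1 and 44.6 in +/+ with Xist1lox/+. The maternal part was lower in MD1/MD1 in both pairs, and no test was made of this difference or of the part of other cell types in it.

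**Figure D2:**
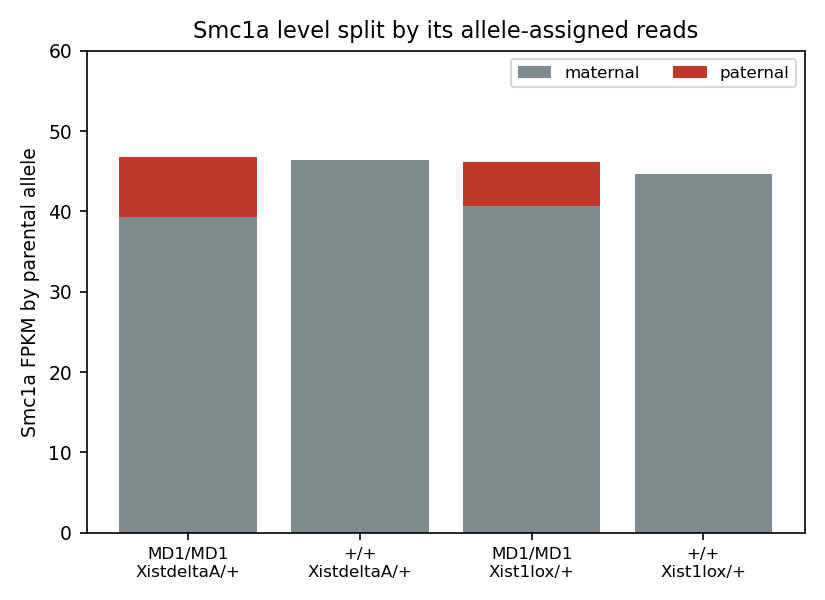
Smc1a FPKM in each library as a bar from 0, split into maternal and paternal parts by the share of allele-assigned reads. The bars have near-equal heights of 44.6 to 46.8 FPKM, and a paternal part of 7.51 and 5.52 FPKM is drawn in the MD1/MD1 libraries alone.

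The X-linked genes beside Smc1a with at least 20 reads in every library did not share 1 pattern. Huwe1, a ubiquitin ligase gene that starts 213 kb before Smc1a, had paternal shares of 11.1% in MD1/MD1 and 0.159% in +/+ with XistdeltaA/+, and of 8.003% and 0% with Xist1lox/+. Hsd17b10, a gene for a mitochondrial dehydrogenase that lies between them, had 1.16% in MD1/MD1 and 0.142% in +/+ with XistdeltaA/+, which passed Fisher's exact test (adjusted p = 0.0414), and 0.484% and 0.147% with Xist1lox/+, which did not (adjusted p = 0.521), on 620 to 702 reads. Ribc1 had 4.35% and 5.15% in the MD1/MD1 libraries and 0% in both +/+ libraries, but with 69 to 97 reads it did not pass (Fisher's exact test, adjusted p = 0.126 and 0.137). Iqsec2, on 38 to 72 reads, did not pass either.

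On the far side, the escape gene Kdm5c was read from the paternal X in all 4 libraries, so strain variants in this region could be read in each of them. Its share was 33.4% in both XistdeltaA/+ libraries, and 31.0% in MD1/MD1 and 25.4% in +/+ with Xist1lox/+. Fisher's exact test called the second pair (adjusted p = 0.00162) and not the first (adjusted p = 1). The noncoding gene Kantr had 24.1% and 3.35% with XistdeltaA/+, and 26.6% and 5.16% with Xist1lox/+, MD1/MD1 before +/+ in each pair. Smc1a had 0 paternal reads in the same +/+ libraries. Over the 28 measured genes within 5 Mb, the median share was 2.86% and 2.24% in the MD1/MD1 libraries and 0.151% and 0.196% in the +/+ libraries.

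**Figure D3:**
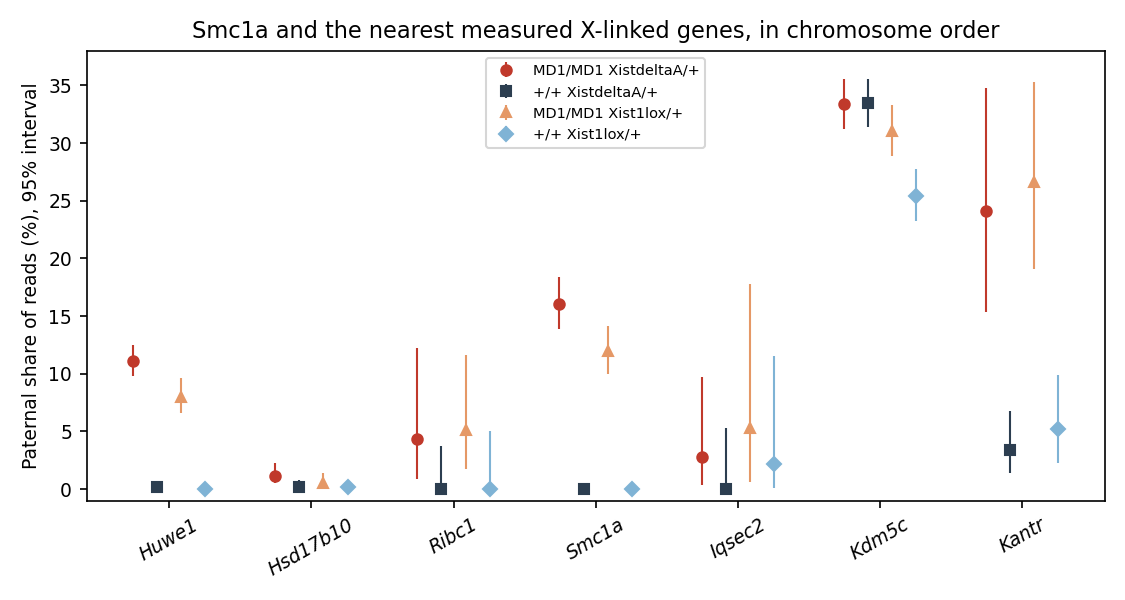
Paternal share of allele-assigned reads in % with exact 95% intervals for Smc1a and the 3 nearest measured genes on each side, in chromosome order and not to scale of distance, with 4 libraries per gene. Smc1a is at 16.0% and 11.9% in MD1/MD1 and at 0% in both +/+ libraries, while Kdm5c is above 25% in all 4.

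The other X-linked gene of the cohesin subunit list is Stag2, whose product binds Rad21. It and Hdac8 are given because they are X-linked, and were chosen after their values were seen. It had fewer reads and a lower share than Smc1a. MD1/MD1 had 9 paternal reads of 291 and +/+ had 0 of 263 with XistdeltaA/+, and with Xist1lox/+ MD1/MD1 had 16 of 263 and +/+ had 0 of 184. The shares of 3.09% and 6.08% in MD1/MD1 passed Fisher's exact test (adjusted p = 0.00955 and 0.00106), as did 46% and 41.1% of the 341 X-linked genes. In the size of the difference 158 and 114 of these genes lay above Stag2. Its 11 measured neighbours within 5 Mb had medians of 3.97% and 6.79% in the MD1/MD1 libraries, so its share was near that of its region. Hdac8, the X-linked deacetylase of Smc3, had 0 to 4 allele-assigned reads a library, too few for a share.

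Smc3 (mm9, chr19:53674886-53720321, plus strand), the partner of Smc1a, had FPKM of 42.4 in MD1/MD1 and 46.9 in +/+ with XistdeltaA/+, and of 40.9 and 40.8 with Xist1lox/+. These values lie close together, with log2 ratios of -0.14 and 0.00. The ratio of Smc1a to Smc3 FPKM was 1.10 in MD1/MD1 and 0.988 in +/+ with XistdeltaA/+, and 1.13 and 1.09 with Xist1lox/+. The pair of cohesin ATPases was thus near parity in every library, with a limma estimate for Smc3 of -0.07 ± 0.16 (SE, adjusted p = 0.968).

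Rad21 (mm9, chr15:51794150-51823306, minus strand), the subunit that closes the cohesin ring, was the highest of the 9 genes in all 4 libraries. Its FPKM was 70.1 in MD1/MD1 and 102 in +/+ with XistdeltaA/+, and 74.6 and 77.8 with Xist1lox/+. Only the +/+ XistdeltaA/+ library was far from the others. The log2 ratios were -0.54 and -0.06, and limma gave -0.30 ± 0.18 (SE, adjusted p = 0.937). Set against the +/+ Xist1lox/+ library in place of its own pair, MD1/MD1 XistdeltaA/+ had a log2 ratio of -0.15.

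The condensin ATPases differed from each other in this respect. Smc4 (mm9, chr3:68808894-68838545, plus strand) had FPKM of 49.8 in MD1/MD1 and 74.8 in +/+ with XistdeltaA/+, and of 55.5 and 53.0 with Xist1lox/+. As for Rad21, the +/+ XistdeltaA/+ library was the high one. The log2 ratios of Smc4, -0.58 and 0.07, have opposite signs. Against the +/+ Xist1lox/+ library the first ratio was -0.09, and limma gave -0.26 ± 0.21 (SE, adjusted p = 0.937). Smc2 (mm9, chr4:52452093-52501237, plus strand), its partner, had 25.01 and 25.9 FPKM with XistdeltaA/+, and 23.5 and 22.8 with Xist1lox/+, MD1/MD1 before +/+. Smc2 was close to flat, so the ratio of Smc4 to Smc2 was 1.99 in MD1/MD1 and 2.89 in +/+ with XistdeltaA/+, and 2.36 and 2.33 with Xist1lox/+.

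Smc5 (mm9, chr19:23280931-23348387, minus strand) had FPKM of 14.0 in MD1/MD1 and 17.7 in +/+ with XistdeltaA/+, and of 12.9 and 12.3 with Xist1lox/+. It was the lowest of the 9 genes in both +/+ libraries. Its log2 ratios were -0.32 and 0.06 on FPKM, and -0.06 and 0.00 on allele-assigned reads, so the first rests on the measure used. limma gave -0.13 ± 0.19 (SE, adjusted p = 0.948). Smc6 (mm9, chr12:11272692-11326591, plus strand), which binds Smc5, had 18.3 and 19.7 FPKM, then 15.9 and 17.4. Its log2 ratios were -0.10 and -0.12 on FPKM, but 0.07 and -0.28 on allele-assigned reads, where the first has the other sign. The limma estimate was -0.11 ± 0.17 (SE, adjusted p = 0.9501). Smc6 exceeded Smc5 in every library, by 1.11 to 1.41 times.

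Ctcf (mm9, chr8:108160438-108206822, plus strand), the gene for the zinc finger protein that halts cohesin at loop anchors, had FPKM of 40.5 in MD1/MD1 and 52.8 in +/+ with XistdeltaA/+, and of 43.9 and 36.8 with Xist1lox/+. The +/+ libraries were thus the highest and the lowest of the 4, with the MD1/MD1 libraries between them. The log2 ratios were -0.38 and 0.25, and limma gave -0.06 ± 0.21 (SE, adjusted p = 0.976). Ctcf had 0 allele-assigned reads in every library, so its parental split was not measured.

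Across the 8 genes other than Smchd1, 7 had a log2 ratio below 0 with XistdeltaA/+ and 2 with Xist1lox/+, with medians of -0.23 and 0.05. Over all tested genes 55% and 49.2% were below 0, with medians of -0.05 and 0.00. The smallest adjusted p from limma among these 8 genes was 0.937. The ratio was below 0 in both pairs for 3 of the 9 genes (Smchd1, Smc6 and Rad21), against 27.8% of tested genes, and had opposite signs for 5 of the 9, against 48.6%. Lower by 1.5-fold or more in both pairs was 1 of the 9, Smchd1, against 0.471% of tested genes, and 0 were higher by as much, against 0.384%. With the +/+ XistdeltaA/+ library left out and both MD1/MD1 libraries set over +/+ Xist1lox/+, Smchd1 was again the 1 gene, at -1.51 and -1.65, and the other 8 genes lay between -0.15 and 0.25. These 2 sets of ratios share that +/+ library.

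The +/+ XistdeltaA/+ library was the highest of the 4 for 8 of the 9 genes, Smc1a being the exception, while 37.3% of tested genes were highest there. The mitotic genes were highest in the same library for 6 of 7, with Plk1, a mitotic kinase gene, at 99.6 in MD1/MD1 and 189 FPKM in +/+ with XistdeltaA/+, and at 141 and 139 with Xist1lox/+. The part of the mitotic genes and of the macrophage markers in these ratios was not tested.

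The order of levels, on the FPKM scale that is per length, was much alike in all libraries apart from Smchd1. Rad21 came first and Smc4 second everywhere. Smc1a, Smc3 and Ctcf followed, with ranges over the libraries of 44.6 to 46.8, 40.8 to 46.9 and 36.8 to 52.8 FPKM that overlap, so their order is not settled. Smc2, at 22.8 to 25.9, lay below them and above Smc6, at 15.9 to 19.7, whose range overlaps that of Smc5, at 12.3 to 17.7. In +/+ Smchd1 lay at the level of Smc2, and in MD1/MD1 it was below all of the other 8 genes. The ratio of Smchd1 to Smc3 FPKM was 0.157 in MD1/MD1 and 0.575 in +/+ with XistdeltaA/+, and 0.146 and 0.511 with Xist1lox/+.

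Paternal reads can be told apart only where the 2 chromosomes carry different strains, and in this cross a region can carry C57BL6/J on both. The share of each autosomal gene of the 9 is therefore set beside the median share of genes within 5 Mb and gets no test. Smchd1 had 0 paternal reads of 399 in MD1/MD1 and 793 of 1549 in +/+ with XistdeltaA/+, and 2 of 376 and 764 of 1458 with Xist1lox/+. Its 28 neighbours had medians of 0.599% and 49.96% in the first pair, and of 0.0678% and 47.4% in the second, MD1/MD1 before +/+. The split of Smchd1 thus moved with that of its region.

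Rad21, Smc2 and Smc4 were read from both alleles in all 4 libraries. Rad21, with 3985 to 5863 reads, had shares of 49.7% in MD1/MD1 and 51.3% in +/+ with XistdeltaA/+, and of 51.4% in both Xist1lox/+ libraries, so both alleles contributed nearly equally. Smc4 had 54.1% and 52.0%, then 51.5% and 53.1%. Smc2 had 57.0% (54.3 to 59.8) and 53.6% with XistdeltaA/+, and 51.9% and 50.2% with Xist1lox/+, and its 57.0% was the value farthest from equal parts among these 3 genes. Genes within 5 Mb of Smc2 had medians of 46.1% and 41.7%, then 47.2% and 46.8%, MD1/MD1 before +/+. Those near Smc4 had 44.7% and 46.4%, then 46.8% and 45.8%, and those near Rad21 50.7% and 51.9%, then 52.2% in both. Smc2 and Smc4 thus lay above the medians of their neighbours in every library.

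Smc6 was read from both alleles in 3 libraries, at 46.9% in MD1/MD1 and 55.0% in +/+ with XistdeltaA/+, and at 55.1% in +/+ Xist1lox/+. In MD1/MD1 Xist1lox/+ it had 0 paternal reads of 484, and its 16 neighbours had a median of 0% there. Smc5 had 2 paternal reads of 718 in MD1/MD1 and 358 of 734 in +/+ with XistdeltaA/+, and 0 of 501 and 257 of 536 with Xist1lox/+. Its 18 neighbours had a median of 4.81% with an upper quartile of 39.5% in MD1/MD1 XistdeltaA/+, so the region was mixed in that library. Smc3 was read from both alleles in +/+ Xist1lox/+ alone, at 47.2% of 479 reads, as were its 25 neighbours, with a median of 50.7%. Total Smc3 was 40.8 FPKM in that library and 40.9 to 46.9 in the 3 libraries with maternal-type reads only.

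**Figure D4:**
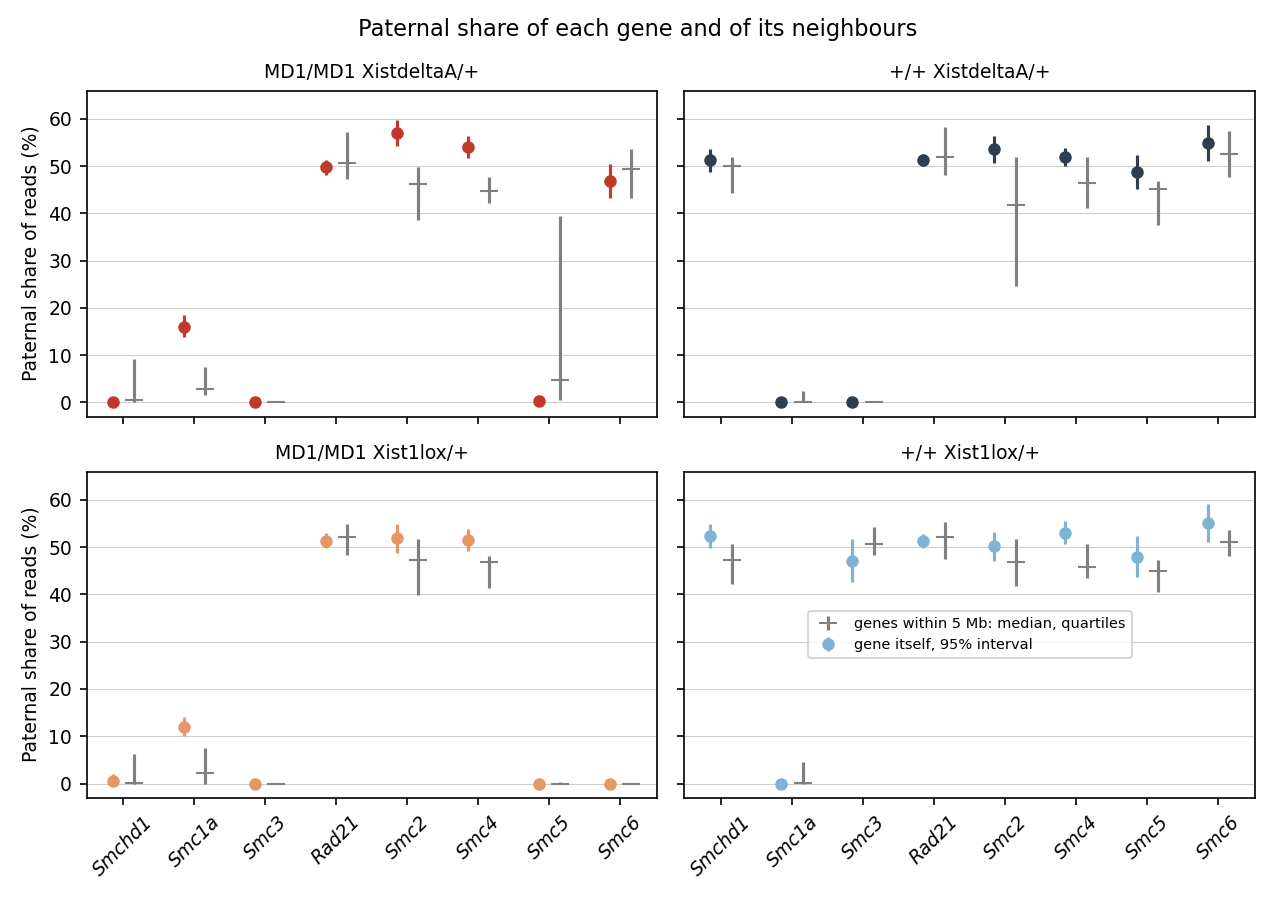
Paternal share of allele-assigned reads in % for the 8 genes with such reads (coloured points, exact 95% intervals) beside the genes within 5 Mb (grey, median with quartiles), 1 panel per library. Autosomal genes lie near 50% or near 0%, mostly as their neighbours do. Neighbours are mixed for Smc5 in MD1/MD1 XistdeltaA/+ and, with a lower quartile of 24.6%, for Smc2 in +/+ XistdeltaA/+. Smc2 and Smc4 lie above the medians of their neighbours in every panel, with Smc2 at 57.0% against an upper quartile of 49.7% in MD1/MD1 XistdeltaA/+. X-linked Smc1a, at 16.0% and 11.9% in MD1/MD1, lies above the upper quartiles of its neighbours.

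Partner genes were taken from lists of cohesin subunits and regulators, meiotic cohesin, both condensins, the Smc5/6 complex and other partners. Of 32 partners apart from the 9 genes, 31 are in the table and 26 had a mean FPKM of at least 1. limma called 0 of the 26, and 2 had an unadjusted p under 0.05, Pttg1 and Nsmce2, against 3.26% of tested genes. With XistdeltaA/+ MD1/MD1 was lower by 1.5-fold or more for 5 of the 26, against 9.29% of tested genes, and 0 were 1.5-fold higher, against 9.22%. With Xist1lox/+ these counts were 1, against 1.62%, and 0, against 1.57%, and 0 genes passed in both pairs. The median log2 ratios of the partners were -0.27 and 0.08. The 5 genes lay in the pair in which the mitotic genes and macrophage markers also differed, and the part of these in the ratios was not tested. With MD1/MD1 XistdeltaA/+ set over +/+ Xist1lox/+ in place of its own pair, 0 of the 26 were past 1.5-fold in either direction and the median was -0.06.

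Of the 5 cohesin subunit genes 0 were past 1.5-fold in either pair, with median log2 ratios of -0.14 and 0.05. The 12 tested cohesin regulators had 3 at least 1.5-fold lower with XistdeltaA/+, against 9.29% of tested genes, and 0 with Xist1lox/+, against 1.62%. The highest expressed of them was Pttg1, the securin that holds back separase, with 107 FPKM in MD1/MD1 and 191 in +/+ with XistdeltaA/+, and 132 and 154 with Xist1lox/+. It was lower in MD1/MD1 in both pairs, with log2 ratios of -0.83 and -0.22 (limma adjusted p = 0.937). Esco2 and Sgol1, named after their values were seen, were the other 2 past 1.5-fold. Esco2, an acetyltransferase of Smc3 in S phase, had 16.3 and 28.8 FPKM with XistdeltaA/+, and 23.3 and 18.3 with Xist1lox/+, so its pairs point in opposite directions. Sgol1, which guards centromeric cohesin, had 8.34 and 16.5, then 12.9 and 12.5.

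All 5 genes of condensin I had negative log2 ratios with XistdeltaA/+ (median -0.48) and positive ones with Xist1lox/+ (median 0.08), where 55% and 49.2% of tested genes were negative. All 5 were highest in the +/+ XistdeltaA/+ library. Ncaph, Ncapd2 and Smc4 were also lowest in MD1/MD1 XistdeltaA/+. For Smc4 the log2 ratio of that library was -0.58 in its own pair and -0.09 against +/+ Xist1lox/+, so its size rests mostly on the +/+ XistdeltaA/+ library. Ncaph had 31.5 FPKM in MD1/MD1 and 44.5 in +/+ with XistdeltaA/+, and 42.5 and 40.1 with Xist1lox/+. Smc2 and Ncapg were instead lowest in +/+ Xist1lox/+. Ncapd2, a subunit built of HEAT repeats and the highest expressed of the list, had 99.6 FPKM in MD1/MD1 and 149 in +/+ with XistdeltaA/+, and 132 and 123 with Xist1lox/+. Condensin II, which shares Smc2 and Smc4, has 5 listed genes with medians of -0.15 and 0.04. Its highest was Ncaph2, at 66.6 and 77.7 FPKM, then 73.9 and 78.5, MD1/MD1 before +/+. In both condensins 0 genes passed 1.5-fold on FPKM + 1. Of tested genes 9.29% were lower and 9.22% higher by as much with XistdeltaA/+, and 1.62% and 1.57% with Xist1lox/+. Without the pseudocount Smc4 was 1.501 times lower in MD1/MD1 with XistdeltaA/+, and Ncapd2 1.4998 times, so this count rests on the pseudocount.

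Of the 7 genes of the Smc5/6 complex, 6 were tested, with medians of -0.35 and -0.13. In each pair 1 of the 6 was at least 1.5-fold lower, a different gene each time. Of all tested genes 9.29% were as much lower with XistdeltaA/+ and 1.62% with Xist1lox/+. These were Nsmce1 with XistdeltaA/+ and Nsmce2 with Xist1lox/+, both named after their values were seen. Nsmce2, a SUMO ligase, had 44.3 FPKM in MD1/MD1 and 57.8 in +/+ with XistdeltaA/+, and 38.9 and 61.5 with Xist1lox/+. Its limma estimate had an unadjusted p of 0.0251 and an adjusted p of 0.937. Nsmce4a, the highest expressed, had 94.4 and 136 FPKM, then 118 and 117.

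Genes for meiotic cohesin were near the floor. Rec8, the meiotic counterpart of Rad21, was the highest of 4, with 1.07 FPKM in MD1/MD1 and 2.94 in +/+ with XistdeltaA/+, and 1.67 and 1.12 with Xist1lox/+. Lrif1, whose product binds SmcHD1, had 5.41 and 6.65 FPKM, then 5.90 and 5.24. The Ctcf paralogue Ctcfl was listed at 0 in all 4 libraries.

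**Figure D5:**
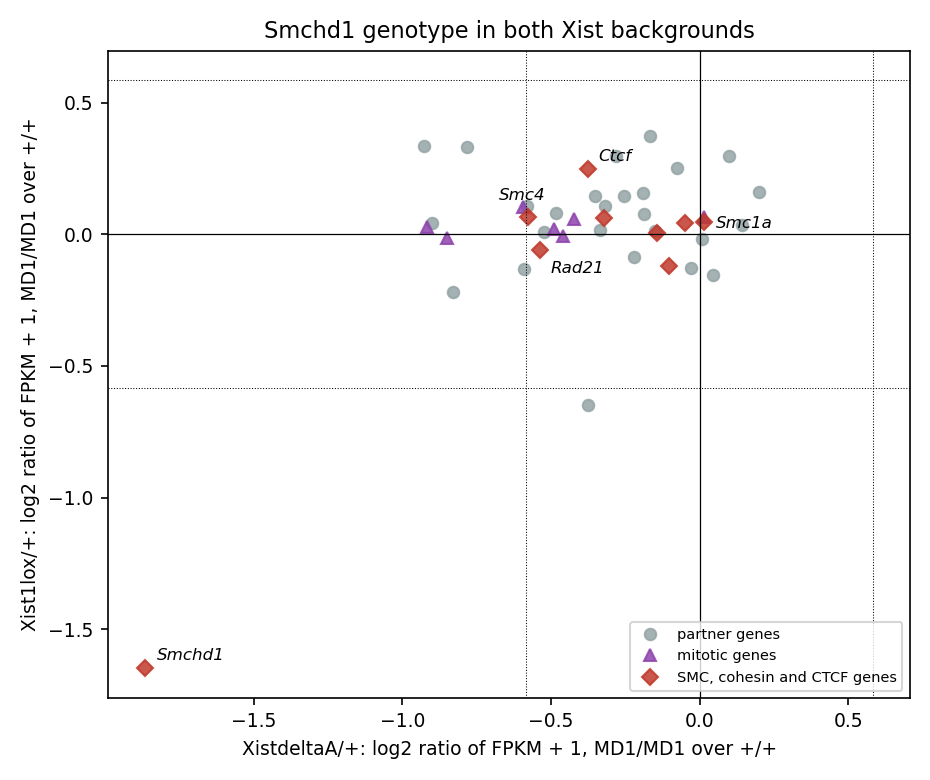
Log2 ratio of FPKM + 1, MD1/MD1 over +/+, with XistdeltaA/+ on the x axis and Xist1lox/+ on the y axis, for the 9 genes (diamonds), 26 partner genes (circles) and 7 mitotic genes (triangles), with dotted lines at 1.5-fold. Smchd1 lies alone at -1.87 and -1.65, and most other points spread leftward along the x axis while staying near 0 on the y axis.

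The comparison of Xist mutations set Xist1lox/+ over XistdeltaA/+. limma called 0 of the 9 genes at an adjusted p under 0.05, against 0 of 11471 tested genes (0%), with 0 of the 9 and 368 of all genes (3.21%) at an unadjusted p under 0.05. edgeR and DESeq2 on allele-assigned reads also called 0 of the 8 genes with such reads, where they called 0% and 0.0433% of their genes, and edgeR without a filter 0.0717%. In the MD1/MD1 pair 6 of the 9 genes had a lower level in Xist1lox/+, against 44.4% of tested genes, and in the +/+ pair all 9 did, against 52.3%. The 6 genes were lower in both pairs, against 24.3%. In +/+ the log2 ratios ran from -0.51 for Ctcf to -0.05 for Smc1a, and in MD1/MD1 from -0.19 for Smc6 to 0.15 for Smc4. The +/+ ratios rest on the library that stood apart. Smchd1 itself had ratios of -0.14 in MD1/MD1 and -0.36 in +/+.

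The genes whose levels over the 4 libraries were most like those of Smchd1 were sought by Euclidean distance of log2(FPKM + 1) after centring each gene. Over these 4 values, the 5 nearest of 11471 genes were Ly6g6c, Mup6, Socs5, Rsph1 and A930015D03Rik, at distances of 0.43 to 0.71. Of the 5, 4 lie on chromosome 17 like Smchd1, a chromosome with 5.13% of tested genes. The parental split differed between genotypes along with the level for Socs5 and Rsph1. Ly6g6c had 0 and 5 allele-assigned reads in the MD1/MD1 libraries and A930015D03Rik had 2 and 10, too few to compare. In +/+ the paternal share of the 4 genes was 64.6% to 96.3%, on 27 to 901 reads. In MD1/MD1 Socs5 had 8 paternal reads of 234 with XistdeltaA/+ and 0 of 168 with Xist1lox/+, and Rsph1 had 0 of 206 and 0 of 236. The part of strain in these levels was not tested. Socs5, which encodes a suppressor of cytokine signalling, had 4.88 FPKM in MD1/MD1 and 14.0 in +/+ with XistdeltaA/+, and 3.95 and 10.3 with Xist1lox/+. Rsph1, which encodes a radial spoke protein of cilia, had 9.78 and 47.1, then 12.4 and 25.6. Mup6 belongs to a family of near-identical genes, so its level is uncertain. None of the other 8 genes described here was among the 5.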

How the data were processed

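RNA-seq of 4 libraries was analysed, 1 per combined genotype. Per the labels' protocols, stranded mRNA libraries were made from total RNA. The submitters' processing notes name mm9, Cufflinks 2.2.1 and Cuffdiff, with no role for either tool, and an aligner was not given in the sources used here. Of these samples the authors deposited, per the file headers, counts of allele-assigned reads, the fraction of these that is paternal, and FPKM. A further 6 columns of other samples were not used. Starts were counted from 1.

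Members, lists and tests were chosen with earlier results of these data known. Both factors, Smchd1 and Xist, entered a limma 3.58.1 model (with a mean-variance trend) of log2(FPKM + 1) for the 11471 genes whose mean FPKM reached 1, with Benjamini-Hochberg adjustment. Ratios of low genes are understated by the pseudocount of 1. The 2 Xist backgrounds stand in for replicates. The 1 residual degree of freedom is how far the effect of a factor differs between levels of the other, moderated over all tested genes. Labels do not say that libraries of 1 genotype are independent cultures, so p-values cover these libraries only. edgeR 4.0.16 (quasi-likelihood) and DESeq2 1.42.0 on allele-assigned counts, which leave out genes without strain variants, were alternatives, with a mean count of at least 10. Paternal shares were tested with Fisher's exact test (SciPy 1.17.1) for genes with at least 20 reads in all libraries. The fits and Fisher's exact test were tested on simulated data. Named genes were the 9 members, list genes past 1.5-fold in both pairs or else the highest expressed of each list, the 5 genes nearest to Smchd1 in pattern, and 3 measured genes on each side of Smc1a. Other genes, among them Stag2, Hdac8, Esco2, Sgol1, Nsmce1, Nsmce2 and the markers, were named after their values were seen. The list of macrophage markers holds Adgre1 under its older symbol Emr1, and that of cohesin regulators holds Wapl under Wapal. Promoter sequences are those of RefSeq.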

Additional observations from a re-analysis of the deposited data

Results flagged for a closer look

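Several genes had log2 ratios of MD1/MD1 over +/+ with opposite signs in the 2 Xist backgrounds, each from 1 library against 1, and the difference between backgrounds was not tested. Opposite signs were common, at 5 of the 9 genes and 18 of 26 partner genes, against 48.6% of tested genes, so the share among the 9 is near that of all genes. Ctcf was at -0.38 with XistdeltaA/+ and at 0.25 with Xist1lox/+. Smc4 was at -0.58 and 0.065, Smc5 at -0.32 and 0.063, Smc3 at -0.14 and 0.0036, and Smc2 at -0.049 and 0.045, in the same order of backgrounds. Among the partner genes that are the highest expressed of their list, Rec8 was at -0.93 and 0.33, Ncapd2 at -0.58 and 0.11, Nsmce4a at -0.52 and 0.0076, and Lrif1 at -0.25 and 0.15.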

How the results depend on the processing

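limma called 4 genes for Smchd1 genotype, 0 without a filter on FPKM and 3 to 6 under the other limma settings. edgeR called 5, and edgeR without a filter and DESeq2 called 22 each, in both cases with 1 of the 9 genes among them, Smchd1, where limma called 0 of the 9. For Xist mutation limma and edgeR called 0 genes, edgeR without a filter 11 and DESeq2 5. The cause of these differences was not tested. Smc2, at -0.0022 in the limma fit, was at 0.021 after quantile normalization and at 0.13, 0.12 and 0.13 with edgeR, edgeR without a filter and DESeq2. On the same 3 read-based settings Smc3 was at 0.040, 0.029 and 0.043, against -0.069, and Smc1a at -0.034, -0.045 and -0.031, against 0.031. Leaving out 1 library leaves the ratio of the other pair, with no test, which for Smchd1 was -1.87 to -1.65. The count of members past 1.5-fold in both pairs was 1 under every alternative run. These include 1 chosen after seeing the data, which leaves out the +/+ XistdeltaA/+ library. The Smc1a share passed in both pairs at read minimums of 10 and 50 and when adjusted over all genes. The Xist background is a factor of the limma model, and without it 6 genes were called for Smchd1 genotype. No paired analysis was possible because the labels give no replicate numbers that could serve as a further block. Depth limits the shares of Stag2, Ribc1 and Iqsec2, which rest on few reads.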

Other observations

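Nsmce2, the SUMO ligase gene of the Smc5/6 complex, stood out in its parental split, and was picked out after its values were seen. Its paternal share was 49.7% (45.6 to 53.7) in MD1/MD1 and 49.2% (45.6 to 52.7) in +/+ with XistdeltaA/+, and 64.8% (60.4 to 69.1) in MD1/MD1 and 48.6% (45.03 to 52.1) in +/+ with Xist1lox/+. The 30 genes within 5 Mb had median shares of 45.5% in MD1/MD1 and 51.1% in +/+ with XistdeltaA/+, and of 48.98% and 49.9% with Xist1lox/+. The MD1/MD1 Xist1lox/+ library thus lay apart from the other 3, beyond the exact 95% interval of each share. Multiplying FPKM by the share gives 13.7 maternal FPKM in that library against 31.6 in +/+ Xist1lox/+, and 22.3 in MD1/MD1 against 29.4 in +/+ with XistdeltaA/+. Paternal Nsmce2 was at 25.2 FPKM in MD1/MD1 and 29.8 in +/+ with Xist1lox/+, and at 21.99 and 28.4 with XistdeltaA/+. In a single library the maternal part was thus below the paternal part, and no replicate of it was analysed here.

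Pttg1, the securin gene, was read more from the paternal allele in every library, at 73.5% in MD1/MD1 and 77.9% in +/+ with XistdeltaA/+, and at 71.1% and 71.9% with Xist1lox/+, on 2349 to 3825 reads. Its 16 neighbours within 5 Mb had medians of 49.05% to 50.4%. Ccnb1, of the mitotic list, was skewed the other way, at 15.7% to 22.8% paternal over the libraries. Paternal reads are told apart by strain, so parent and strain cannot be separated for such a skew. The share of all genes with a like skew was not computed.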
